A study of Mus musculus with 18 samples.

Results

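The response of ABHD5-rescued brown adipocytes to SR-3420 was described across all genes by comparing 3 libraries treated with SR-3420 with 3 treated with the vehicle DMSO, all with doxycycline (Dox). These were 6 of the 18 libraries of the series, chosen by the treatment and Dox in their column titles, and 10178 of the 17672 genes in the table had enough counts to be tested. The cells were an immortalised mouse brown adipocyte line that carried a lentiviral shRNA against Abhd5 and a Dox-inducible, shRNA-resistant ABHD5 tagged with mCherry. Every group carried both constructs, so the cells with Dox, which the labels call WT, were knockdown cells with ABHD5 put back, and the cells without Dox were the knockdown. Dox was given at 1 µg/ml, for 24 to 48 h by the labels and the study's methods and for 24 h by its figure legend of the experiment. SR-3420 was given at 20 µM for 3 h. The comparison asks what lipolysis does to transcription when it is started without an agonist of the β-adrenergic receptor. The other groups used below were DMSO and SR-3420 without Dox, and isoproterenol (ISO, 10 nM, 3 h), a β-adrenergic agonist, with Dox, with 3 libraries each.

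ABHD5 sits on perilipin at the surface of the lipid droplet and, once released, activates ATGL, the lipase that takes the first fatty acid from a triglyceride. The agonist reaches this step through cAMP and protein kinase A, whereas SR-3420 binds ABHD5 directly. Fatty acids set free in this way are burned in mitochondria, re-esterified into triglyceride, or bound by nuclear receptors of the PPAR family, which switch on genes of fatty acid handling.

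The reads were counted over a length that differed by 10% or less from the summed introns in 72.6% of 16536 genes, and from the summed exons in 2.27%. The table held 2.86% of the annotated protein-coding genes without introns, against 85.0% of those with introns. By these figures the reads were not counted over exons alone. The lengths were not compared with those of whole genes, over which the study's methods say it counted. The share of unspliced RNA in the counts was not tested. Library totals of the 6 libraries ranged from 906023 to 1956565 counts. SR-3420 with Dox replicate 1 stood apart, since its 10 genes with most counts held 35.6% of all counts against 19.1% to 24.8% in the other 5 libraries, and list counts that moved by over 1.5 times without it are given without it below. Summed CPM (a gene's share of the counts in its library, on TMM-scaled library sizes) of the 17 adipocyte markers ran from 4597 to 5192 with DMSO and from 6785 to 8418 with SR-3420. The 15 macrophage markers summed to 16.6 to 29.6 and 22.8 to 26.6, with Cd14, Lyz2, Lyz1, C1qa and C1qb at 0 in both groups, and the 10 endothelial markers to 23.4 to 28.2 and 16.8 to 29.6, with Tie1 at 0 in both. The 16 preadipocyte markers summed to 1074 to 1496 with DMSO and 944 to 1150 with SR-3420, with Thy1 and Pi16 at 0 in both. The part of these shifts in the results below was not tested.

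Abhd5 itself (NM_026179, chr9:122260734-122290641, plus strand of mm9) had 583, 656 and 484 CPM with DMSO and Dox and 575, 849 and 660.1 with SR-3420 and Dox. Without Dox it had 47.2, 55.8 and 54.8 with DMSO and 77.8, 70.9 and 78.5 with SR-3420. Every library with Dox was above every library without it. Between SR-3420 and DMSO with Dox, Abhd5 (log2 fold change 0.27, SE 0.14, adjusted p = 0.256) did not pass the test. Which sequence, of the gene or of the construct, gave these counts was not tested, so the level of Abhd5 cannot be read as that of the gene's own unspliced RNA.

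More genes were called higher than lower with SR-3420 on TMM scaling. By edgeR's quasi-likelihood test, 214 genes (2.10% of those tested) were called higher and 102 (1.00%) lower at an adjusted p of 0.05 and a log2 fold change of 1 or more in size. On the adjusted p alone, which the words rose and fell rest on, 665 genes (6.53%) rose and 343 (3.37%) fell. The counts of each list below are to be read against these shares. The main fit left out the replicate numbers, although these paired the libraries. With the replicate number as a block, 1000 rose and 568 fell, so some genes that did not pass in the main fit passed with the pairing. Without SR-3420 with Dox replicate 1, 470 rose and 169 fell. With library totals as the only scaling, the median of all genes moved from -0.01 to -0.21, and the share of calls that were higher from 67.7% of 316 to 35.2% of 355, and upper-quartile factors gave 57.6% of 311. The balance of higher and lower calls therefore changed with the scaling, and folds are best read relative to those medians.

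**Figure D1:**
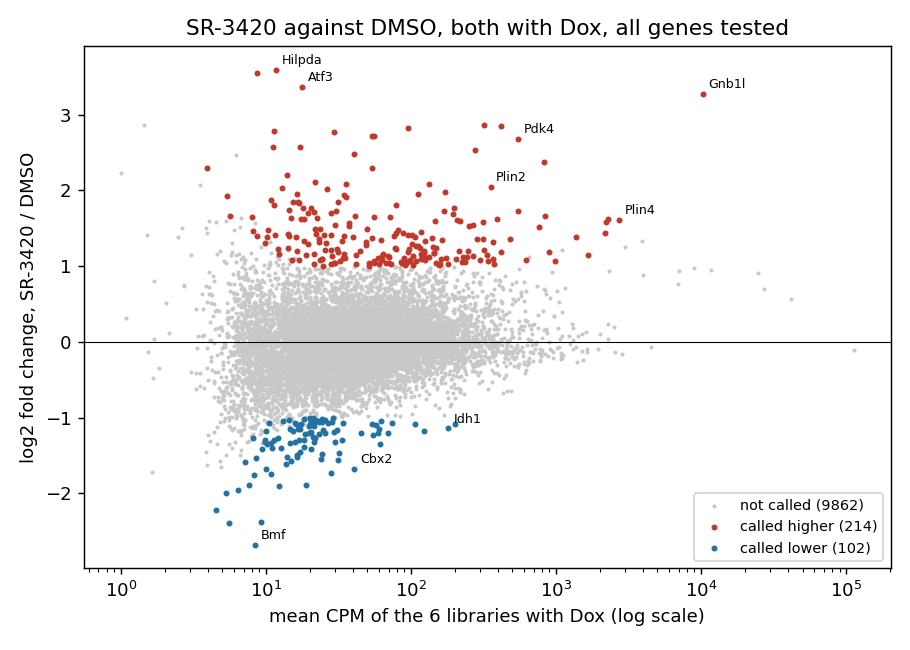
Log2 fold change of SR-3420 over DMSO with Dox (vertical axis) against mean CPM of the 6 libraries (horizontal axis, log scale), 1 point per gene tested. Red points are the 214 genes called higher, blue points the 102 called lower and grey points the rest, and the higher calls reach a log2 fold change of 3.60.

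The genes of fatty acid sensing rose in most cases on TMM scaling and fell in none, while 16 of the 33 tested rose with library totals. Of 33 tested targets of PPARs, 20 rose and 0 fell, with a median log2 fold change of 0.81 where that of all genes was -0.01, and 18 rose without SR-3420 with Dox replicate 1. Pdk4, the kinase that shuts pyruvate out of the mitochondrial oxidation of glucose, had 196, 93.7 and 144 CPM with DMSO and 1139, 909.7 and 804 CPM with SR-3420. All 3 treated libraries were several times above all 3 controls, and Pdk4 rose (log2 fold change 2.68, SE 0.24, adjusted p = 9.92e-09). Among all genes tested, every treated library was above every control in 13.6% and below every control in 12.2%. Plin2, a perilipin that coats lipid droplets, had 152, 158 and 100 CPM with DMSO and 589, 731 and 395 CPM with SR-3420, again without overlap, and rose (log2 fold change 2.05, SE 0.24, adjusted p = 6.61e-07). Acaa1b, a peroxisomal thiolase, had 394, 195 and 197 CPM with DMSO and 1613, 1524 and 1019 CPM with SR-3420 and rose (log2 fold change 2.38, SE 0.23, adjusted p = 2.41e-08). It overlaps a gene on the other strand, and no source states that strand was used in counting, which leaves its value uncertain.

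Some members of this list were low in the controls. Hilpda, a droplet protein that restrains ATGL, had 2.89, 0 and 1.12 CPM with DMSO and 22, 27.8 and 17 CPM with SR-3420, and rose (log2 fold change 3.60, SE 0.57, adjusted p = 6.71e-05). It overlaps another gene on its own strand, so its value is uncertain. Fabp4, the fatty acid carrier of adipocytes, had 31.3, 23.9 and 10.1 CPM with DMSO and 141, 249 and 118 CPM with SR-3420 and rose (log2 fold change 2.82, SE 0.27, adjusted p = 1.79e-08). Ppara, one of the receptors themselves, had 18.3, 6.25 and 16.9 CPM with DMSO and 134, 38.8 and 118 CPM with SR-3420 and rose (log2 fold change 2.72, SE 0.49, adjusted p = 0.000326), with every treated library above every control. Pparg, the receptor that governs adipocyte identity, had 278, 254 and 265 CPM with DMSO and 265, 222 and 276 CPM with SR-3420, with groups that overlap (log2 fold change -0.07, SE 0.16, adjusted p = 0.857), and did not pass. Angptl4, a secreted inhibitor of lipoprotein lipase, had 625, 269 and 542 CPM with DMSO and 879.8, 699.9 and 729 CPM with SR-3420 and did not pass (log2 fold change 0.68, SE 0.25, adjusted p = 0.0928), but did with the replicate block (log2 fold change 0.75, adjusted p = 6.42e-05), with no filter on low counts (log2 fold change 0.66, adjusted p = 0.00035) and without DMSO with Dox replicate 1 (log2 fold change 0.93, adjusted p = 0.0457).

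Some genes of fat breakdown and some of fat storage rose. Of 19 tested genes of lipolysis and the droplet, 11 rose and 0 fell (median 0.72), and of 26 genes of triglyceride re-synthesis and fatty acid activation, 11 rose and 1 fell (median 0.51). The 1 that fell, Acsl5, which overlaps a gene on the other strand, lost its call without SR-3420 with Dox replicate 1. Dgat1, which adds the last fatty acid to make a triglyceride, had 1253, 1249 and 1018 CPM with DMSO and 3261, 3544 and 2781 CPM with SR-3420 and rose (log2 fold change 1.44, SE 0.19, adjusted p = 4.84e-06). Gpd1, which makes the glycerol 3-phosphate backbone, had 413, 399.7 and 381 CPM with DMSO and 1464, 1151 and 1184 CPM with SR-3420 and rose (log2 fold change 1.67, SE 0.15, adjusted p = 9.92e-09). It overlaps a gene on the other strand. Acsl1, which couples fatty acids to coenzyme A, had 223, 316 and 218 CPM with DMSO and 798, 979 and 718 CPM with SR-3420 and rose (log2 fold change 1.72, SE 0.17, adjusted p = 2.59e-08). Pck1, the enzyme of glyceroneogenesis, was low in the controls with 10.1, 3.12 and 6.74 CPM with DMSO and 55.4, 62.6 and 38 CPM with SR-3420, and rose (log2 fold change 2.78, SE 0.39, adjusted p = 1.23e-05).

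Among the lipases, Mgll, which frees the last fatty acid, had 158, 189 and 134 CPM with DMSO and 434, 389.7 and 413 CPM with SR-3420 and rose (log2 fold change 1.36, SE 0.17, adjusted p = 1.97e-06), although it overlaps a gene on the other strand. Pnpla2, which encodes ATGL, had 525, 514 and 544 CPM with DMSO and 755, 719.8 and 627 CPM with SR-3420. Its groups did not overlap, yet it did not pass (log2 fold change 0.41, SE 0.14, adjusted p = 0.0549), except with the replicate block (log2 fold change 0.41, adjusted p = 0.0105), without SR-3420 with Dox replicate 3 (log2 fold change 0.49, adjusted p = 0.0481), by DESeq2 (log2 fold change 0.41, adjusted p = 0.0198) and by limma-voom (log2 fold change 0.41, adjusted p = 0.03). Dgat2, the other enzyme of the last step, had 82.3, 127 and 96.6 CPM with DMSO and 93.2, 132 and 80.9 CPM with SR-3420 and did not pass (log2 fold change 0.02, SE 0.20, adjusted p = 0.959). Of 35 genes of mitochondrial and peroxisomal β-oxidation, 11 rose and 1 fell, with a median of 0.22. The median was 0.35 without DMSO with Dox replicate 1 and 0.09 without replicate 2 of that group, and 0 fell without DMSO with Dox replicate 3 or without SR-3420 with Dox replicate 2 or 3. Crat, a carnitine acetyltransferase that overlaps genes on the other strand, rose (log2 fold change 0.85, SE 0.14, adjusted p = 8.19e-05), while Cpt1a, the gate for fatty acids into mitochondria, did not pass (log2 fold change -0.01, SE 0.22, adjusted p = 0.986).

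**Figure D2:**
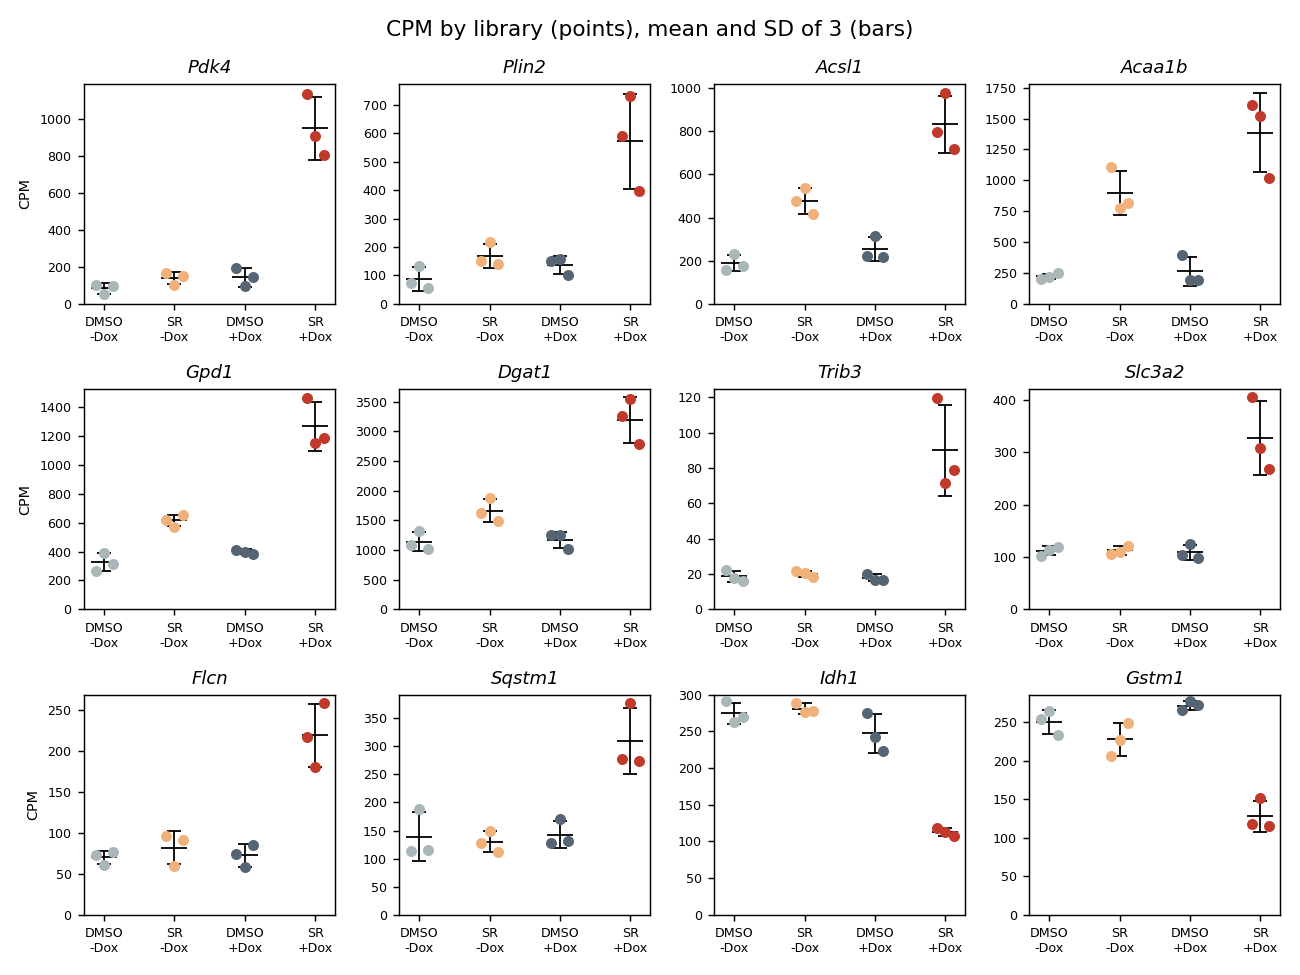
CPM of 12 genes in each of 12 libraries (points, linear axes from 0), with the mean and SD of 3 replicates (bars), for DMSO and SR-3420 (SR) without and with Dox. Pdk4, Trib3, Slc3a2, Flcn and Sqstm1 are high in the 3 libraries with SR-3420 and Dox, Acsl1, Acaa1b and Gpd1 are also higher with SR-3420 without Dox, and Idh1 and Gstm1 are low in SR-3420 with Dox.

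A second group was the amino acid response, the genes that the factor ATF4 switches on when amino acids run short or the integrated stress response is active. Of 44 tested members 21 rose and 0 fell, with a median of 0.71. Without SR-3420 with Dox replicate 1, 13 rose and the median was 0.35, and that replicate was the highest for several members. Trib3, a pseudokinase induced by stress, had 20.2, 16.7 and 16.9 CPM with DMSO and 119.5, 71.6 and 78.9 CPM with SR-3420, and rose (log2 fold change 2.29, SE 0.27, adjusted p = 7.47e-07). Slc3a2, the heavy chain of the amino acid exchangers at the cell surface, had 104, 125 and 97.7 CPM with DMSO and 405, 308 and 269 CPM with SR-3420 and rose (log2 fold change 1.59, SE 0.15, adjusted p = 1.6e-08). Asns, asparagine synthetase, had 31.3, 54.1 and 20.2 CPM with DMSO and 169.6, 78.5 and 77.9 CPM with SR-3420 and rose (log2 fold change 1.65, SE 0.28, adjusted p = 0.000126). In each of these genes all treated libraries were above all controls, as in 13.6% of all genes.

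Atf3, a stress-induced transcription factor, was nearly silent in the controls with 2.89, 5.2 and 1.12 CPM with DMSO and 35.2, 43.7 and 19 CPM with SR-3420, and rose (log2 fold change 3.37, SE 0.43, adjusted p = 3.33e-06). Gdf15, a secreted stress hormone, had 2.89, 1.04 and 4.49 CPM with DMSO and 25.5, 15.9 and 18 CPM with SR-3420 and rose (log2 fold change 2.79, SE 0.42, adjusted p = 3.67e-05). Aars and Tars, which load transfer RNAs with amino acids, both rose, Aars (log2 fold change 1.05, SE 0.20, adjusted p = 0.000638) and Tars (log2 fold change 0.92, SE 0.17, adjusted p = 0.000593). Nupr1, a stress-induced chromatin protein, rose (log2 fold change 0.87, SE 0.16, adjusted p = 0.000437). Of the enzymes of serine synthesis, Psat1 did not pass (log2 fold change 0.07, SE 0.18, adjusted p = 0.872), and Phgdh, the first enzyme, passed only with the replicate block or other settings (log2 fold change 0.59, SE 0.23, adjusted p = 0.104), namely with the block (log2 fold change 0.58, adjusted p = 0.00584), without SR-3420 with Dox replicate 2 (log2 fold change 0.87, adjusted p = 0.00634) and with no filter on low counts (log2 fold change 0.57, adjusted p = 0.0226).

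Genes of protein folding in the endoplasmic reticulum (ER) passed at shares near those of all genes. Of 38 tested, 2 (Dnajb9 and Derl1) rose and 1 (Dnajc3) fell, where 6.53% of all genes rose and 3.37% fell, with a median of -0.01. With 1 library left out, 1 to 4 rose, with 1 without DMSO with Dox replicate 1 or without SR-3420 with Dox replicate 2 and 4 without DMSO with Dox replicate 2. Dnajc3 lost its call without DMSO with Dox replicate 1 or 2 or without SR-3420 with Dox replicate 1 or 3. Hspa5, the ER chaperone BiP, had 133, 164 and 175 CPM with DMSO and 135, 184 and 134 CPM with SR-3420 and did not pass (log2 fold change -0.05, SE 0.20, adjusted p = 0.919). Xbp1, the factor spliced on ER stress, had 51.5, 57.3 and 37.1 CPM with DMSO and 44.8, 38.8 and 38.9 CPM with SR-3420 and did not pass (log2 fold change -0.26, SE 0.21, adjusted p = 0.515). Of the 18 tested markers of the unfolded protein response that the study used, 8 rose, and of these Asns, Atf3 and Sars also belong to the amino acid list. Without DMSO with Dox replicate 1, 4 rose, and without SR-3420 with Dox replicate 2, 5. Sars did not pass without DMSO with Dox replicate 1 (log2 fold change 0.64, adjusted p = 0.0509) or without SR-3420 with Dox replicate 1 (log2 fold change 0.45, adjusted p = 0.117).

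The promoters of some of these genes hold the letters that ATF4 dimers bind. The 250 bases before each start were searched on both strands for TGATGNAA, which was found in 1.76% of the 10178 genes in 3.27% of those called higher and in 2.94% of those called lower. It was found in 6 of the 21 amino acid genes that rose and in 4 of the 23 that did not. The sequences below were read from mm9 in the direction of the gene, with the match in capitals, and are shown because these genes rose and hold it. Asns is at chr6:7643183-7643432 and Atf3 at chr1:193007213-193007462, both on the minus strand, and Aars at chr8:113557492-113557741 on the plus strand.
Asns: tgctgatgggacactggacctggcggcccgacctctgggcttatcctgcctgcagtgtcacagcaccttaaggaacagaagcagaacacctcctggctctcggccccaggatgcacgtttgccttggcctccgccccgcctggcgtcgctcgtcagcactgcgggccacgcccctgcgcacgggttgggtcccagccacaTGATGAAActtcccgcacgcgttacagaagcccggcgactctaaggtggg
Atf3: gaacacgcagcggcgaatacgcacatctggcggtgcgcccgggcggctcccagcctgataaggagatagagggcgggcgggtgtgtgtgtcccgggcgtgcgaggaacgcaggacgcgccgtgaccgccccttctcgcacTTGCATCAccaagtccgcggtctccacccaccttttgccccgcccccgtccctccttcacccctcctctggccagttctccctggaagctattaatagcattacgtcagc
Aars: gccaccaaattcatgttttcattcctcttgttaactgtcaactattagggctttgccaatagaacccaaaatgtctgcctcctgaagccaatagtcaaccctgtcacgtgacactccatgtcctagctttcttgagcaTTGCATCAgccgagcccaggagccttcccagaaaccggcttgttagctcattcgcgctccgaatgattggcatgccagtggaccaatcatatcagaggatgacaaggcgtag
The match starts 50 bases before the start of Asns, 110 before that of Atf3 and 112 before that of Aars. A match is a description of letters, not a bound site.

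Genes of autophagy and the lysosome formed a further group. Of 57 tested, 13 rose and 0 fell (median 0.24), and 11 rose without SR-3420 with Dox replicate 1. With the replicate block 18 rose and 2 fell, and with library totals 11 rose and 2 fell. Flcn, folliculin, which with Fnip1 signals nutrient state at the lysosome, had 73.7, 58.3 and 85.4 CPM with DMSO and 217, 181 and 259 CPM with SR-3420 and rose (log2 fold change 1.59, SE 0.18, adjusted p = 6.98e-07). Fnip1 had 71.3, 61.4 and 57.3 CPM with DMSO and 173, 114 and 177 CPM with SR-3420 and rose (log2 fold change 1.27, SE 0.21, adjusted p = 0.000112). Sqstm1, the autophagy receptor p62, had 128, 169.7 and 131 CPM with DMSO and 278, 378 and 275 CPM with SR-3420 and rose (log2 fold change 1.13, SE 0.19, adjusted p = 0.000104). For all of them the groups did not overlap, as for the 13.6% of all genes that lay higher. Rragc, a RAG GTPase of the same nutrient pathway, rose (log2 fold change 0.75, SE 0.13, adjusted p = 0.000287), Hexa, a lysosomal hydrolase, rose (log2 fold change 0.76, SE 0.14, adjusted p = 0.000566), and Atp6v1c1, a subunit of the proton pump, rose (log2 fold change 0.95, SE 0.17, adjusted p = 0.000239). Tfeb, a master factor of lysosome genes, had 18.8, 21.9 and 20.2 CPM with DMSO and 13.2, 19.9 and 20 CPM with SR-3420 and did not pass (log2 fold change -0.19, SE 0.30, adjusted p = 0.77).

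The E-box CACGTG, a palindrome that factors such as TFEB, MYC and CLOCK bind, was found in the same window of 8.49% of all genes, in 32 of the 214 called higher and in 5 of the 102 called lower. Among all genes that rose it was found in 13.2%, among those that fell in 5.83% and among the rest in 8.24%. It was in 4 of the 13 lysosome genes that rose and in 10 of the 44 that did not. The promoters of Hexa (chr9:59387224-59387473) and Rragc (chr4:123594426-123594675), both on the plus strand of mm9, are shown as lysosomal genes that rose and hold it.
Hexa: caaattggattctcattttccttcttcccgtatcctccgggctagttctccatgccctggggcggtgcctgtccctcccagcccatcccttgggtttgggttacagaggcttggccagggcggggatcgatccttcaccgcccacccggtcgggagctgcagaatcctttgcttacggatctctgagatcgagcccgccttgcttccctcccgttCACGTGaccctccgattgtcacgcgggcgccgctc
Rragc: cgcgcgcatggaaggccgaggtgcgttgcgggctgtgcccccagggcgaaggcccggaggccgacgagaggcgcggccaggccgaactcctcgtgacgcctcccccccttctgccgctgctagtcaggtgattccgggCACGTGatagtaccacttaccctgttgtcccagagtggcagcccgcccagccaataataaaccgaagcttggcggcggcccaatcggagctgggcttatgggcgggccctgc
The direct repeat with a spacer of 1 base that PPARs bind was in 0.226% of all windows, in 1 of the 214 genes called higher, in 1 of the 665 that rose and in 0 of the 20 PPAR targets that rose. Nothing is drawn about any factor from these windows.

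**Figure D3:**
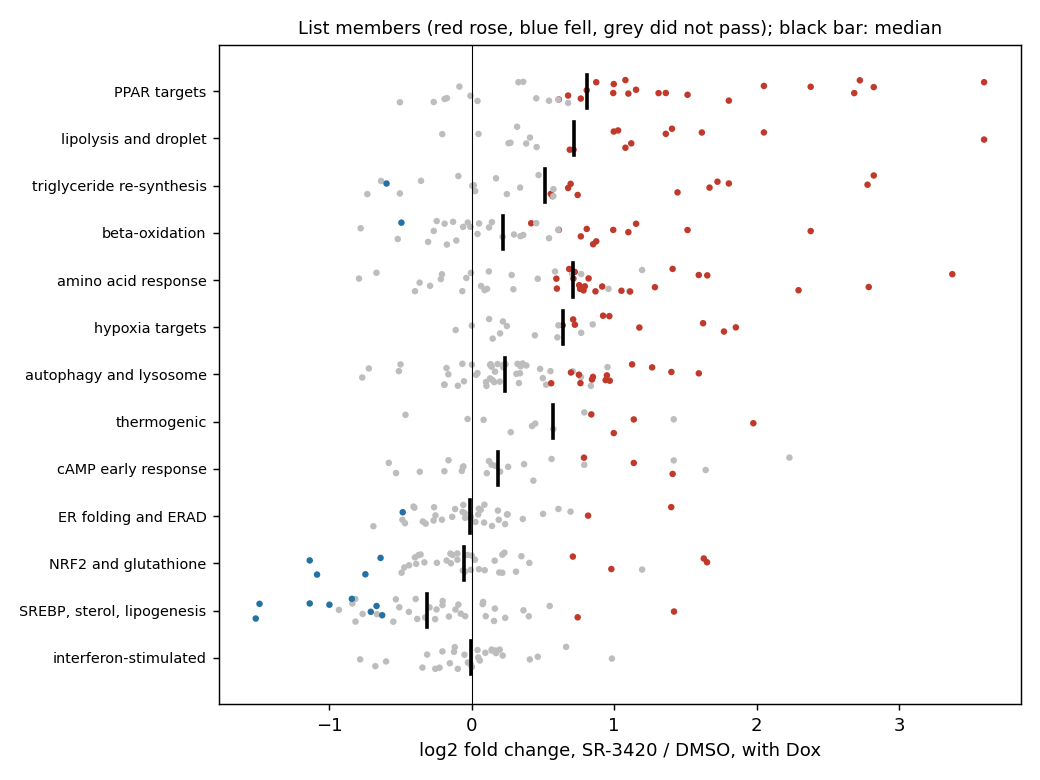
Log2 fold change with Dox (horizontal axis) of each tested member of 13 lists, with red for members that rose, blue for those that fell and grey for those that did not pass, and a black bar at the median. The medians run from 0.81 for the PPAR targets to -0.31 for the SREBP list.

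Some hypoxia targets and glycolysis genes rose. Of 21 tested targets of hypoxia-inducible factors 9 rose and 0 fell (median 0.64), and of 33 genes of glucose uptake and glycolysis 8 rose and 1 fell (median 0.21). Without DMSO with Dox replicate 1, 5 of the 33 glycolysis genes rose and the median of the list was 0.12, and it came to 0.13 without SR-3420 with Dox replicate 2. The gene that fell, Pfkm, which overlaps a gene on the other strand, lost its call when any of the 6 libraries but DMSO with Dox replicate 3 was left out, and also with RLE factors, no filter on low counts, DESeq2, limma-voom or the fit on the 6 libraries alone. Egln3, the oxygen sensor that marks the factor for destruction, had 8.67, 18.7 and 15.7 CPM with DMSO and 34.3, 63.6 and 46.9 CPM with SR-3420 and rose (log2 fold change 1.85, SE 0.31, adjusted p = 0.000145). Hk2, hexokinase, had 8.18, 10.4 and 5.62 CPM with DMSO and 26.4, 28.8 and 29 CPM with SR-3420 and rose (log2 fold change 1.77, SE 0.30, adjusted p = 0.000164), although it overlaps a gene on the other strand. P4ha1, a collagen prolyl hydroxylase, rose (log2 fold change 1.18, SE 0.18, adjusted p = 4.9e-05). Slc2a4, the insulin-regulated glucose transporter, did not pass (log2 fold change 0.44, SE 0.17, adjusted p = 0.0993), except without SR-3420 with Dox replicate 1 (log2 fold change 0.59, adjusted p = 0.0446), nor did Ldha, lactate dehydrogenase (log2 fold change 0.30, SE 0.15, adjusted p = 0.228).

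Phosphatases that switch off MAP kinases rose in 3 cases among 14 genes of MAPK feedback, where 4 rose and 0 fell. Of all genes 6.53% rose and 3.37% fell. With the replicate block 5 of the 14 rose and 1 fell. Over genes with 10 or more counts throughout, 2 of the list were tested and 1 rose. Dusp10 had 10.6, 8.33 and 19.1 CPM with DMSO and 71.2, 67.6 and 64.9 CPM with SR-3420 and rose (log2 fold change 2.48, SE 0.24, adjusted p = 2.14e-08). Dusp16 rose (log2 fold change 1.85, SE 0.36, adjusted p = 0.000703), and Dusp5 (log2 fold change 1.70, SE 0.35, adjusted p = 0.00125). Both were low, with unscaled counts of 18, 6 and 5 with DMSO and 24, 32 and 27 with SR-3420 for Dusp16. For Dusp5 they were 27, 6 and 5 with DMSO and 34, 40 and 23 with SR-3420. Irs2, an adaptor of the insulin receptor, had 53.4, 38.5 and 49.4 CPM with DMSO and 134, 132 and 125 CPM with SR-3420 and rose (log2 fold change 1.44, SE 0.19, adjusted p = 4.56e-06). It overlaps a gene on the other strand. In the insulin and FOXO list 5 of 30 rose and 4 fell, where 6.53% of all genes rose and 3.37% fell. The median was 0.15, and it turned to -0.02 with library totals as the only scaling. Without SR-3420 with Dox replicate 1 or 2, 1 fell, without DMSO with Dox replicate 2 and by DESeq2 2 fell, and with the replicate block 8 rose and 6 fell. Leaving out SR-3420 with Dox replicate 2 gave a median of 0.07.

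The early genes of cAMP signalling and the thermogenic genes were set beside their response to ISO, a comparison with the same DMSO libraries. Of 24 tested cAMP genes 3 rose and 0 fell, where 6.53% of all genes rose and 3.37% fell. With the replicate block 5 rose and 1 fell, and 2 fell without DMSO with Dox replicate 1. The median was 0.18, which turned to -0.01 with library totals and to -0.07 over genes with 10 or more counts throughout. The median of the same genes with ISO was 1.69. Nr4a1, an early nuclear receptor, had 43.8, 15.6 and 33.7 CPM with DMSO and 53.6, 53.7 and 38.9 CPM with SR-3420 and did not pass (log2 fold change 0.56, SE 0.26, adjusted p = 0.181), except without DMSO with Dox replicate 1 (log2 fold change 1.00, adjusted p = 0.0415). Ucp1, the uncoupling protein of brown fat, had 3 counts in all with DMSO and 7 with SR-3420, a ratio of 2.91 (95% exact counting interval 0.665 to 17.4), so no difference was detectable at this depth. Such an interval covers counting error alone and not the spread between replicates.

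Of 13 thermogenic genes 4 rose and 0 fell, with a median of 0.57 with SR-3420 and 1.28 with ISO. With the replicate block 7 rose and 1 fell, and 1 rose without DMSO with Dox replicate 1 or 2 and 2 without DMSO with Dox replicate 3. The median was 0.37 without DMSO with Dox replicate 2 and 0.34 without SR-3420 with Dox replicate 1. Ppargc1b, a coactivator of mitochondrial genes, had 75.6, 62.5 and 70.8 CPM with DMSO and 382, 164 and 282 CPM with SR-3420, and rose (log2 fold change 1.98, SE 0.27, adjusted p = 5.93e-06). Ppargc1a, its relative, had 41.9, 38.5 and 50.6 CPM with DMSO and 146, 61.6 and 75.9 CPM with SR-3420, with replicate 1 far above the others, and rose (log2 fold change 1.14, SE 0.31, adjusted p = 0.0166). Without SR-3420 with Dox replicate 1 it did not pass (log2 fold change 0.67, adjusted p = 0.249), and 1 gene of the list rose. Leaving out DMSO with Dox replicate 1 (log2 fold change 1.101, adjusted p = 0.0772) or replicate 2 (log2 fold change 1.08, adjusted p = 0.0528) also ended the call, as did DESeq2 (log2 fold change 1.12, adjusted p = 0.0748). Of 66 nuclear subunits of oxidative phosphorylation 1 rose and 0 fell, with a median of -0.04, and 0 rose when any of the 6 libraries but SR-3420 with Dox replicate 1 was left out.

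Of 18 clock genes 3 (Arntl, Npas2 and Cry1) rose and 1 fell, where 6.53% of all genes rose and 3.37% fell. With the replicate block 5 rose and 2 fell. Nr1d1, which the study calls Reverba and names among the clock genes that lipolysis activates, had too few counts to be tested. With Dox it had 6, 1 and 3 counts with DMSO and 9, 13 and 6 with SR-3420. Without DMSO with Dox replicate 3 or without SR-3420 with Dox replicate 1 or 3, 1 rose, as by DESeq2. Npas2 lost its call with library totals, by DESeq2 and when replicate 1 or 3 of either group was left out, for example DMSO with Dox replicate 1 (log2 fold change 1.15, adjusted p = 0.116), and Cry1 did not pass when any of the 6 libraries was left out, for example SR-3420 with Dox replicate 1 (log2 fold change 0.66, adjusted p = 0.261). Arntl, the partner of CLOCK, had 40.9, 48.9 and 47.2 CPM with DMSO and 85.3, 90.5 and 80.9 CPM with SR-3420 and rose (log2 fold change 0.93, SE 0.17, adjusted p = 0.000329). Per3, a repressor of the same loop, had 230.1, 291 and 235 CPM with DMSO and 150.3, 160.1 and 139.8 CPM with SR-3420 and fell (log2 fold change -0.74, SE 0.14, adjusted p = 0.000703). Clock itself did not pass (log2 fold change -0.03, SE 0.14, adjusted p = 0.932).

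The 102 genes called lower were counted over a median of 10296 bases, against 20776 for all genes tested and 19086 for those called higher. Idh1, the cytosolic isocitrate dehydrogenase that makes NADPH, had 275, 243 and 224 CPM with DMSO and 119, 113 and 107 CPM with SR-3420 and fell (log2 fold change -1.14, SE 0.15, adjusted p = 3.22e-06). Gstm1, a glutathione transferase, had 265, 277 and 272 CPM with DMSO and 118, 151 and 115 CPM with SR-3420 and fell (log2 fold change -1.08, SE 0.14, adjusted p = 3.25e-06). Parp16, an ADP-ribosyltransferase of the ER membrane, had 87.6, 95.8 and 79.8 CPM with DMSO and 28.1, 37.8 and 38 CPM with SR-3420 and fell (log2 fold change -1.35, SE 0.18, adjusted p = 5.3e-06). All 3 genes had every treated library below every control, as had 12.2% of all genes. In the NRF2 and glutathione list 4 of 40 rose and 4 fell, where 6.53% of all genes rose and 3.37% fell. The median was -0.05. Without DMSO with Dox replicate 1, 1 rose, without SR-3420 with Dox replicate 2, 2 rose, and without DMSO with Dox replicate 2 or without SR-3420 with Dox replicate 1 or 3, 2 fell. Gclc, which starts glutathione synthesis, did not pass (log2 fold change -0.06, SE 0.17, adjusted p = 0.876).

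The sterol and lipogenic genes under SREBP factors leaned lower. Of 42 tested, 8 fell and 2 rose, with a median of -0.31. Without SR-3420 with Dox replicate 1, 3 fell and 2 rose, with a median of -0.32. Without DMSO with Dox replicate 1, 3 fell, and without SR-3420 with Dox replicate 3, 4, and limma-voom gave 5. Acly, which makes cytosolic acetyl-CoA, had 287, 249 and 267 CPM with DMSO and 179, 157 and 171 CPM with SR-3420 and fell (log2 fold change -0.67, SE 0.14, adjusted p = 0.00206). Fasn, fatty acid synthase, had 162, 215 and 215 CPM with DMSO and 161, 218 and 178 CPM with SR-3420 and did not pass (log2 fold change -0.08, SE 0.16, adjusted p = 0.823).

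Among the other lower genes, Cbx2, a Polycomb protein, had 60.7, 55.2 and 70.8 CPM with DMSO and 24.6, 14.9 and 18 CPM with SR-3420 and fell (log2 fold change -1.67, SE 0.23, adjusted p = 7.57e-06). Dgcr8, the partner of Drosha in microRNA processing, had 176, 186 and 152 CPM with DMSO and 62.4, 94.4 and 70.9 CPM with SR-3420 and fell (log2 fold change -1.18, SE 0.16, adjusted p = 5.68e-06). It overlaps Trmt2a on the other strand. Marveld1 had 43.3, 48.9 and 38.2 CPM with DMSO and 14.9, 10.9 and 13 CPM with SR-3420 and fell (log2 fold change -1.73, SE 0.24, adjusted p = 1.08e-05). Bmf, a pro-apoptotic BH3-only protein, had 58 counts over the DMSO libraries and 7 over those with SR-3420, 6.64-fold lower (95% exact counting interval 3.03 to 17.2, counting error alone), and fell (log2 fold change -2.68, SE 0.61, adjusted p = 0.00368).

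The genes were called on the contrast with Dox, although the libraries without Dox entered the count filter and the estimate of the spread. Fitted on the 6 libraries compared alone, 205 genes were called higher, 202 of them among the 214, and 88 lower, 84 of them among the 102. Without Dox, 71 genes rose (0.698%) and 7 fell (0.0688%) with SR-3420, and 60 of the 71 also rose with Dox. The 214 genes called higher with Dox had a median of 0.54 without it, where that of all genes was -0.003, and 175 had a positive sign (81.8%, against 49.5% of all genes). Of them 206 responded less without Dox, 40 (18.7%) passed there, and 39 had an interaction past the adjusted p, against 0.540% of all genes tested. The 102 genes called lower had a median of -0.15, 71 (69.6%) kept the sign, 2 (1.96%) passed, and 14 had a negative interaction, against 0.216% of all genes. A gene chosen with Dox is more likely to be smaller elsewhere, so these counts describe the genes and are not a test.

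Without Dox the PPAR targets had a median of 0.49, the droplet genes 0.53 and the re-synthesis genes 0.35. The medians of the amino acid list, the hypoxia list and the lysosome list were 0.01, -0.01 and 0.06. Acaa1b had 203, 214 and 248 CPM with DMSO and 1105, 773 and 816 with SR-3420 without Dox, and rose there by 2.02 on the log2 scale (adjusted p = 3.64e-06), with an interaction of 0.36 (adjusted p = 0.706). Slc3a2 had 102, 113 and 119.7 and 106, 109.8 and 122, and its interaction was 1.58 (adjusted p = 0.000155). Trib3 had 22.2, 17.7 and 16.2 and 21.5, 20.3 and 18, with 2.21 (adjusted p = 0.0133). The difference between the lists was not tested. A positive interaction passed for 1 of 33 PPAR targets, 3 of 44 amino acid genes and 5 of 57 lysosome genes, where it passed for 0.540% of all genes. Fnip1, Gabarapl1, Atp6v1b2 and Atp6v1c1 missed it without SR-3420 without Dox replicate 3, while Flcn passed with any library left out.

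**Figure D4:**
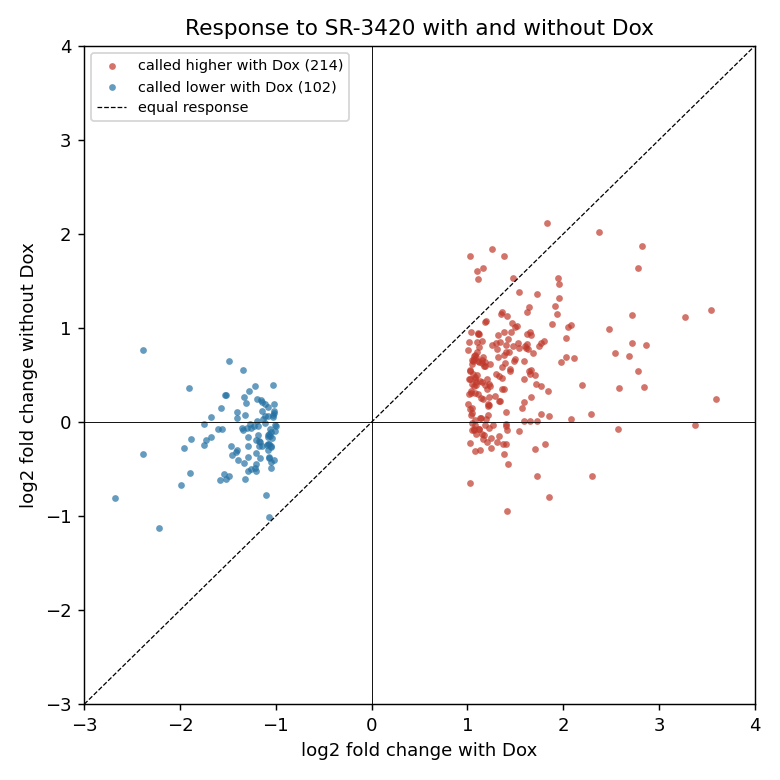
Log2 fold change of SR-3420 over DMSO without Dox (vertical axis) against that with Dox (horizontal axis), for the 214 genes called higher (red) and 102 called lower (blue) with Dox. The dashed line marks an equal response, and 206 of the red and all 102 of the blue points lie on its side of smaller response without Dox.

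The study sorted genes activated by ISO into clusters by their need for lipolysis, in other libraries treated with lipase inhibitors. Those cells did not carry the Abhd5 shRNA and got a higher dose of ISO. Of the 154 genes of the cluster for which lipolysis was sufficient and necessary, 87 were tested. Of these 45 rose and 0 fell here (median 0.79), where 6.53% of all genes rose and 3.37% fell. Of the 190 that depended on it in part, 140 were tested, and 56 rose and 0 fell (median 0.59). Of the 181 activated with or without it, 143 were tested, and 37 rose and 2 fell (median 0.38). Without DMSO with Dox replicate 3, 24 rose and 0 fell, and 0 fell without SR-3420 with Dox replicate 2 or 3. Of the 105 more active without it, 72 were tested, and 12 rose and 0 fell (median 0.25). The other genes of each cluster had too few counts or were not matched by name. With library totals 20 of the 143 rose (median 0.19) and 6 of the 72 (median 0.05).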

How the data were processed

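Per the study's methods, the authors aligned TruSeq reads to mouse build mm9 with STAR 2.4.2a, let HOMER keep 1 read per position and length, and obtained gene totals from iRNA-seq. They deposited raw counts, with no scaling. The methods name counting over genes, and the counted lengths, compared with introns and exons only, lay nearer those of introns. Every column of sample values was used. Genes were kept with filterByExpr over the 6 groups, scaled by TMM and fitted to all 18 libraries with edgeR 4.0.16 (quasi-likelihood, 1 mean per group) in R 4.3.3, with Benjamini-Hochberg adjustment and two-sided tests, and the fit was checked on simulated data, where the share of false calls came out above the nominal rate. The replicate numbers paired the samples: deviations of same-numbered libraries correlated at 0.188, 0.246 and 0.123 with Dox and 0.138, 0.263 and 0.137 without, and the study names 3 independent experiments. Alternatives were RLE, upper-quartile and total scaling, other count filters, DESeq2 1.42.0, limma-voom 3.58.1, a replicate block, only the contrast's groups, and each library left out. Named genes were Abhd5, genes of the study's text, the 12 smallest p and the 5 largest folds in each direction without overlap between groups, and up to 5 members a list, not all of which are given, plus 61 chosen after their values were seen, among them Aars, Tars, Nupr1, Psat1, Phgdh, Hexa, Rragc, Atp6v1c1, Tfeb, Fasn, Pnpla2, Angptl4 and Nr4a1. The members and lists were chosen with earlier results of these data known. List counts under the alternatives were added after seeing the data. Gene positions and promoter sequences are mm9, with starts counted from 1. Some genes and sequences are not reported here.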

Additional observations from a re-analysis of the deposited data

Results flagged for a closer look

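The response to SR-3420 differed between cells with and without Dox for 37 of the named genes by edgeR's test of the interaction (adjusted p from 9.98e-05 to 0.0376), and each value below is the log2 fold change with Dox minus that without. It was positive for 27 genes. Values over 1.5 were Dusp16 2.65, Slc16a3 2.30, Trib3 2.21, Hist1h2bc 2.05, 4931406C07Rik 2.05, Pdk4 1.98, Tmem140 1.81, Sash1 1.71, Impact 1.63 and Slc3a2 1.58. Values from 1 to 1.5 were Atp6v1b2 1.43, Gabarapl1 1.43, Bri3 1.42, Dhrs9 1.39, Flcn 1.38, Arfgap3 1.35, P4ha1 1.31, Fnip1 1.30, Sqstm1 1.19, Atp6v1c1 1.17 and Nupr1 1.16, with Phospho1 1.13 and Plekhm2 1.103. The smaller ones were Tnip1 0.93, 3110043O21Rik 0.86, Aifm2 0.85 and Ephx2 0.78.

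It was negative for 10 genes, at Gstm1 -0.94, Wdyhv1 -0.95, Rnpep -0.95, Dgcr8 -1.14, Idh1 -1.17, Nudt6 -1.18, Parp16 -1.29, Cbx2 -1.52, Marveld1 -1.54 and Tmem205 -1.71. Of the 37 genes, 13 (4931406C07Rik, Arfgap3, Bri3, Cbx2, Dgcr8, Dhrs9, Flcn, Idh1, Parp16, Pdk4, Sash1, Slc3a2 and Tmem140) passed under every alternative run, and the other 24 missed the adjusted p under at least 1. Ephx2 and Wdyhv1 missed it under 14 of 21 alternatives and Fnip1 and Rnpep under 11 of 21. For Atp6v1b2 it was 10 of 21 and for Tmem205 10 of 20. Of the 37, 13 overlap another annotated gene, which leaves their values uncertain, and of these 4931406C07Rik, Bri3, Dgcr8, Sash1 and Tmem140 passed under every alternative. The others are Aifm2, Atp6v1b2, Gabarapl1, Nudt6, Phospho1, Rnpep, Slc16a3 and Tmem205. Genes called with Dox were among those named, so the interactions are not independent of that choice.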

How the results depend on the processing

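The genes called higher (214) numbered 125 with library totals, 132 over genes with 10 or more counts throughout and 665 with no fold limit, and 178 to 244 when 1 library was left out. Those called lower (102) numbered 230 with library totals, 45 over genes with 10 or more counts, 51 at an adjusted p of 0.01 and 343 with no fold limit, and 77 to 99 when 1 library was left out. On the adjusted p alone, genes that rose (665) numbered 322 with library totals and 1000 with the replicate block (470 to 602 with 1 library left out), and genes that fell (343) numbered 701 with library totals, 226 by DESeq2 and 568 with the replicate block (169 to 270). The lowest of these came without DMSO with Dox replicate 1 (202) or 3 (227) and SR-3420 with Dox replicate 1 (169) or 3 (225). The interaction calls (60) numbered 100 with no filter, 128 with the replicate block and 9 at an adjusted p of 0.01. With 1 library left out they ran from 27 to 61, at 27 without DMSO with Dox replicate 3, 31 without SR-3420 with Dox replicate 1, 35 without DMSO without Dox replicate 1 or 3, and 37 and 28 without SR-3420 without Dox replicate 1 and 3. The median without Dox of the genes called higher was 0.49 with library totals. Medians of lists changed sign for the cAMP genes (-0.0087 with library totals, -0.073 over genes with 10 or more counts), the insulin and FOXO genes (-0.018), LXR targets (-0.043), p53 targets (-0.14), heat shock genes (-0.096) and matrix genes (-0.086) with library totals. Medians also changed sign with 1 library left out for some lists, among them ER folding (0.049), the NRF2 list (0.026), the LXR targets (-0.056), interferon genes (0.26 without SR-3420 with Dox replicate 1) and endothelial markers (0.27 without DMSO with Dox replicate 1). With library totals the median was 0.03 for β-oxidation and for glycolysis, 0.06 for the lysosome list, 0.32 for re-synthesis, 0.36 for the thermogenic list and -0.50 for the SREBP list. With library totals 7 droplet genes, 13 amino acid genes, 5 glycolysis genes, 3 insulin genes, 2 thermogenic genes and 1 each of the clock and NRF2 lists rose. Of the named genes, the replicate block changed the call of Angptl4, Gyk (0.60, adjusted p = 0.0075), Phgdh, Pnpla2, Slc7a1 (1.15, adjusted p = 0.0122) and Slc7a5 (1.01, adjusted p = 0.00721), which passed with it, and of no other. No named gene that passed changed sign, while 19 that did not pass did so under at least 1 alternative. The cause of these changes was not tested. At a median of 36 to 83 counts per gene tested, small changes of weakly transcribed genes were not detectable.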
